A study of Arabidopsis thaliana with 9 samples.

Results

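Late embryogenesis abundant (LEA) proteins and the dehydrins among them were described in freshly harvested Arabidopsis thaliana seeds. The family was taken as 53 gene loci in 9 named subgroups plus 2 unclassified loci, chosen by locus identifier and not by any measured value. Of these, 49 had a row among the 22555 genes of the joined tables. The loci AT2G03740, AT2G33690, AT3G53770 and AT5G60530 were not analysed here. RNA was sequenced from seeds imbibed for 8 h in 3 groups of 3 libraries. The first group was the estradiol-inducible DOF6 overexpression line DOF6ioex in mock solution, which the labels give as water. The second was DOF6ioex in 50 µM estradiol, and the third was the line labelled rgl2-13 DOF6ioex in 50 µM estradiol. All 9 libraries therefore carry the DOF6 construct, and no line without it was treated, so an effect of estradiol itself and an effect of DOF6 cannot be told apart. DOF6 encodes a transcription factor of the DOF family, and RGL2 encodes a DELLA repressor of gibberellin signalling that restrains germination.

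LEA proteins accumulate late in seed maturation, when the embryo acquires the capacity to survive drying. Most are very hydrophilic and lack a fixed fold in solution, and they are thought to protect membranes and other proteins as water is lost. Their genes are classic targets of abscisic acid (ABA): bZIP factors such as ABI5 bind the ABA-responsive element (ABRE), whose core is ACGTG, together with the B3 factor ABI3, and several dehydrins also respond to cold and drought through the DRE core CCGAC, bound by CBF and DREB2 factors. Stored LEA transcripts decline as a seed passes from the dry state to germination.

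The ABRE core was common in the promoters of abundant members, and the 250 bases before the annotated gene start are shown for 6 members that the results below turn on. They are AT3G53040, one of the promoters with most cores, EM6, AT3G15670, the LEA_4 gene with the highest level, M10, and the members that changed in level, AT3G02480 and COR47. Capitals mark ACGTG and its reverse complement CACGT. The sequences are from the RefSeq annotation of TAIR10.1, written 5′ to 3′ on the strand of the gene. The windows are chr3:19666498-19666747 (minus strand) for AT3G53040, chr2:16780369-16780618 (minus) for EM6, chr3:5310989-5311238 (minus) for AT3G15670, chr2:17209447-17209696 (plus) for M10, chr3:511970-512219 (plus) for AT3G02480 and chr1:7086874-7087123 (minus) for COR47.
AT3G53040: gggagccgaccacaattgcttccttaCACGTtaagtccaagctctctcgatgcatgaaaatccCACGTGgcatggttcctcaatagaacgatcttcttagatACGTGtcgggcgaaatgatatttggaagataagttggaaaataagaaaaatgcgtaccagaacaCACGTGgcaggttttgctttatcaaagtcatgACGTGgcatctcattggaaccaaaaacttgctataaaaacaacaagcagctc
EM6: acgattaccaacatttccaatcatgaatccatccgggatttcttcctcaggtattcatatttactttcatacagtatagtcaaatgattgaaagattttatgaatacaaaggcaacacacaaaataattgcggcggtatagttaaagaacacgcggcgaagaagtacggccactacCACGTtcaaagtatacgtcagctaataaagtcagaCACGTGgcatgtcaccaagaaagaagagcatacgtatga
AT3G15670: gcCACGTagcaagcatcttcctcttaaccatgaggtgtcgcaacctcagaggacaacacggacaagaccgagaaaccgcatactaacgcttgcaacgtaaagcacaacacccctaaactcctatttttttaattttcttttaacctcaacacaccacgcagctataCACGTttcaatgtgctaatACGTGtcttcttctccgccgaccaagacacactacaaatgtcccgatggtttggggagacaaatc
M10: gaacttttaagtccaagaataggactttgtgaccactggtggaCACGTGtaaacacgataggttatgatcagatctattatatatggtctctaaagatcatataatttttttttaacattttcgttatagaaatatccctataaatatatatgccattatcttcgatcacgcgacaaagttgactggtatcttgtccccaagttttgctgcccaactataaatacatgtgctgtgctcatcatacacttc
AT3G02480: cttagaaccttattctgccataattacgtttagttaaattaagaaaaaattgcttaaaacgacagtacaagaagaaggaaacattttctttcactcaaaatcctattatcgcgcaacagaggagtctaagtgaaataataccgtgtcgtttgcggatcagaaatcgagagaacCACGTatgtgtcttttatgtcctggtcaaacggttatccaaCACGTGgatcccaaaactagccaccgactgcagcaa
COR47: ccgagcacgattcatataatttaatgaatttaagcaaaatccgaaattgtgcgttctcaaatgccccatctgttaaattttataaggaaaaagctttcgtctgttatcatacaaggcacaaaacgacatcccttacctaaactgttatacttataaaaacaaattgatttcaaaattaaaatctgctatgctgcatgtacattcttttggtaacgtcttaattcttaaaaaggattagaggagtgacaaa
Cores were counted on each strand, so a CACGTG, which reads the same on both, counts as 2. Counted so, the first holds 7 cores, EM6, AT3G15670 and AT3G02480 hold 3 each, M10 holds 2 and COR47 holds 0.

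Levels are given as FPKM, fragments per kilobase of transcript scaled to library depth, which allows levels to be set side by side between genes. The fragments per library were estimated at 26900000 to 28800000 from the steps between low values, and the deposited values are floored at 0.01 FPKM. DOF6 averaged 0.637 ± 0.225 FPKM (SD, n = 3) in mock, 33.9 ± 1.98 in the induced DOF6ioex seeds and 33.7 ± 16.3 under the rgl2-13 label. Under that label DOF6 was at 52.2 FPKM in replicate 1 and at 21.4 and 27.5 in replicates 2 and 3. RGL2 averaged 10.8 ± 2.13, 8.59 ± 1.39 and 17.6 ± 1.36 FPKM, so it was higher, not lower, under the rgl2-13 label, and directions below are those of the label. Transcripts of 12 seed storage and oil body markers made up 12.9% to 19.3% of the FPKM total, whereas the 3 testa markers with a row summed to 0.16 to 0.43 FPKM. The 4 green tissue markers summed to 20.5 to 40.9 FPKM. The 5 endosperm markers summed to 33840 to 67439 FPKM, nearly all of it EPR1 at 33815 to 67414; ICE1 was at 24.6 to 27.7, and RGE1, NAC025 and AT3G12910 were at 0.12 or less. EPR1 was lowest in replicate 1 labelled rgl2-13 DOF6ioex, where ICE1 was at 25.3. Median-of-ratios scaling multiplied the deposited values of that library by 0.8439, against 0.9637 to 1.067 in the other libraries. Its typical deposited value was thus relatively high. The member counts of the comparisons that use that library are also given without it. Nothing in the labels says that the libraries of a group came from separate plants or seed lots, so p-values measure the spread between these libraries, which may be technical.

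LEA transcripts were among the most abundant of the imbibed seed. Of the 49 members, 27 averaged 100 FPKM or more over the 9 libraries, a bound chosen after the values had been seen, and each of the 27 was above 100 FPKM in all 9 libraries. Of the 84 genes at 1000 FPKM or more, 18 were LEA members, and 20 members were among the 100 highest genes. A further 13 members averaged from 1 to under 100 FPKM, and 9 averaged under 1 FPKM and were not tested. The members nearest the bound were AT2G18340 at 162 FPKM and AT2G23120 at 96.4 FPKM. Together the 49 members held 11.0 ± 0.293% of the FPKM total in mock (SD, n = 3), 10.8 ± 0.426% in DOF6ioex in estradiol and 9.75 ± 0.825% under the rgl2-13 label.

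**Figure D1:**
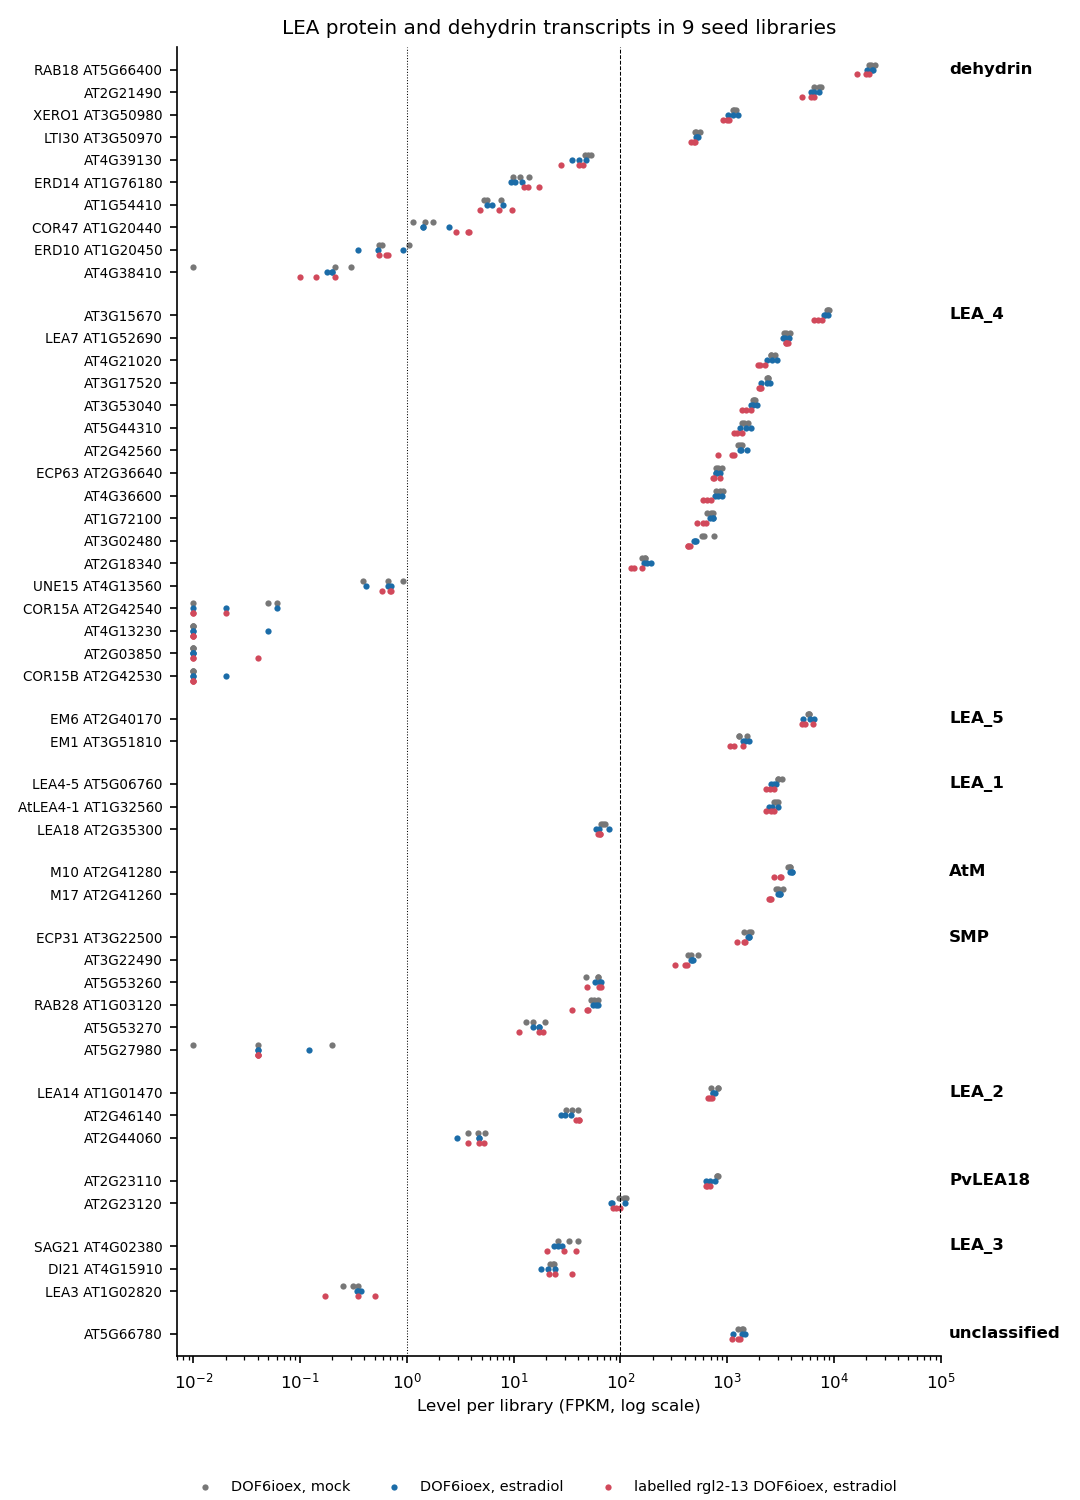
FPKM of each of the 49 members on a log axis, by subgroup, with 1 point per library coloured by group. The dotted line marks 1 FPKM and the dashed line 100 FPKM; 27 members lie right of the dashed line in every library, and RAB18 is the highest.

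Dehydrins, defined by lysine-rich K-segments that can form a helix on membranes, ranged from 0.172 FPKM for AT4G38410 to 21334 for RAB18. RAB18 (AT5G66400, chromosome 5, 26518277 to 26519447 in TAIR10.1, minus strand), a dehydrin known for its induction by ABA, was the fourth most abundant transcript of the seed. It measured 21458, 24460 and 22325 FPKM in mock, 23100, 22630 and 20390 in DOF6ioex in estradiol, and 16487, 19936 and 21220 under the rgl2-13 label. The 3 libraries under the rgl2-13 label were all below the 3 mock libraries but overlapped with DOF6ioex in estradiol. RAB18 alone held 2.27% to 3.26% of the FPKM total. Its annotated locus overlaps AT5G66410 on the opposite strand, and the sources used here do not say whether counting used strand. AT5G66410 itself averaged 9.75 FPKM and ran from 8.48 to 12.6 over the 9 libraries. The next dehydrin, AT2G21490, averaged 6529 FPKM over the 9 libraries, XERO1 averaged 1097 and LTI30, a dehydrin known from cold-treated plants, averaged 508. The acidic dehydrins known from vegetative cold and drought responses were far lower, with ERD14 at 12.2 FPKM, COR47 at 2.24 and ERD10 at 0.647. AT4G39130 averaged 43.0 FPKM. It measured 50.1, 53.4 and 46.4 in mock and 47.6, 40.6 and 35.3 in DOF6ioex in estradiol, which overlapped. Under the rgl2-13 label it measured 27.8, 41.3 and 44.5, all below mock.

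The LEA_4 subgroup, the largest in Arabidopsis, split into 12 members at 162 to 8082 FPKM and 5 below 1 FPKM, with none between. AT3G15670 (chromosome 3, 5309886 to 5310988, minus strand) led it. LEA7 (AT1G52690) averaged 3595 FPKM, AT4G21020 2455 and AT3G17520 2249. At the low end, COR15A and COR15B, which encode chloroplast proteins induced by cold, averaged 0.0278 and 0.0111 FPKM, and UNE15 averaged 0.636. The values of COR15A lie at or near the floor of the deposited files. COR15B was listed in 3 of the 9 libraries only and was set to 0.01 in the others.

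The LEA_5 subgroup holds the early methionine-labelled proteins, small and highly hydrophilic seed proteins. EM6 (AT2G40170, chromosome 2, 16779552 to 16780368, minus strand) averaged 5757 FPKM and EM1 1360. The AtM subgroup consists of M10 (AT2G41280, chromosome 2, 17209697 to 17210423, plus strand) and M17 (AT2G41260, chromosome 2, 17206452 to 17207698, plus strand), which lie near each other and averaged 3621 and 2895 FPKM. Of the LEA_1 subgroup, LEA4-5 and AtLEA4-1 averaged 2786 and 2699 FPKM, and LEA18 averaged 66.3. LEA4-5 was the higher of the pair in every mock library, but the libraries of the pair overlapped in both estradiol groups.

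The seed maturation protein (SMP) subgroup was led by ECP31 at 1517 FPKM, followed by AT3G22490 at 441 and RAB28 at 53.4. AT5G53260 and AT5G53270, at 59.6 and 16.1 FPKM, share part of their sequence, 12.9% and 7.53% of their 50-base words, so reads could be split between them. LEA14 averaged 743 FPKM. It belongs to LEA_2, whose members are folded proteins, unlike the rest of the family. The other LEA_2 members were far lower, with AT2G46140 at 35.3 FPKM and AT2G44060 at 4.44. In PvLEA18, AT2G23110 averaged 723 FPKM and AT2G23120 96.4. The LEA_3 members SAG21, a gene known for induction in senescing leaves, and DI21, known from drought, averaged 29.5 and 23.6 FPKM, and LEA3 averaged 0.332. SAG21 shares 13.5% of its 50-base words with the overlapping AT4G04125. AT2G23120 shares 12.8% with AT2G23118 and AT2G18340 shares 3.09% with AT2G18350, so the same limit holds for them. It also holds for COR15B, which shares 27.3% with AT2G42520, and UNE15, which shares 8.12% with other genes. LEA7, AT2G18340, AT2G23120 and AT3G22490, like RAB18, overlap a gene on the opposite strand. Among members under 1 FPKM, so do COR15B, UNE15 and AT5G27980. The unclassified AT5G66780 averaged 1305 FPKM.

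**Figure D2:**
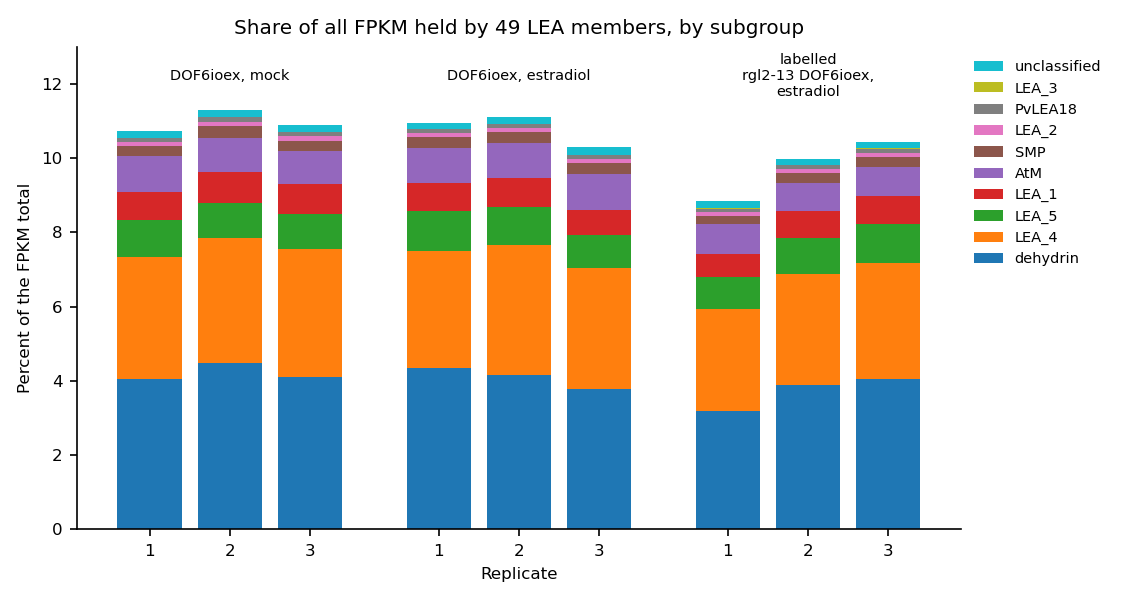
Share of the FPKM total held by the 49 members in each of the 9 libraries, stacked by subgroup. Dehydrins and LEA_4 make up most of each bar, and the whole bar runs from 8.84% in replicate 1 labelled rgl2-13 DOF6ioex to 11.3% in mock replicate 2.

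At the median, the members varied somewhat less between libraries of a group than all tested genes. Over the 40 tested members the median coefficient of variation was 6.76% in mock, 7.99% in DOF6ioex in estradiol and 9.04% under the rgl2-13 label, beside 8.52%, 8.59% and 12.4% over all tested genes. Single members reached 21.9%, 34.5% and 32.9%. The spread of other abundant genes was not set beside these, so the lower medians are not read as particular to the family. LEA7 was the steadiest of the abundant members across groups. It measured 3404, 3590 and 3853 FPKM in mock, 3326, 3820 and 3499 in DOF6ioex in estradiol, and 3582, 3684 and 3593 under the rgl2-13 label, and all 3 groups overlapped. EM6 overlapped as fully, at 5760, 5824 and 5887 FPKM in mock, 6470, 5942 and 5090 in DOF6ioex in estradiol, and 5074, 5361 and 6410 under the rgl2-13 label.

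The first comparison asked how DOF6 induction altered the seed transcriptome, by setting estradiol against mock in DOF6ioex. No LEA member passed the adjusted test: limma called 0 of 40 tested members at an adjusted p under 0.05, where it called 0.154% of all 13679 tested genes. At an unadjusted p under 0.05 it found 2 members, both lower in estradiol, with 2.31% of all genes lower at that threshold. AT3G02480 (LEA_4, chromosome 3, 512220 to 513036, plus strand) measured 748, 583 and 611 FPKM in the mock libraries and 507, 491 and 494 after induction. The groups did not overlap, and mock replicate 1 was the highest of the 6. The difference was -0.37 ± 0.10 (SE) in log2(FPKM + 1), with an adjusted p of 0.338 in limma. AT2G23110 (PvLEA18) measured 806, 820 and 804 FPKM in the mock libraries and 767, 698 and 634 after induction, again without overlap, a difference of -0.22 ± 0.09 with an adjusted p of 0.703. A total of 3 members did not overlap and were lower in estradiol, beside 4.31% of all genes; the other was LEA4-5 at 0.884 times mock. No member was higher without overlap, beside 10.6% of all genes.

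The 40 members ranged from -0.37 to 0.16 in this comparison, and 27 of them were fitted lower in estradiol, 67.5% beside 37.4% of all genes. Their median difference was -0.04, against 0.04 over all genes. Of the 643 other genes at 100 FPKM or more, 49.9% were fitted lower, or 64.4% with median-of-ratios scaling, beside 19 of the 27 members at that level, or 22 with that scaling. The 12 storage and oil body markers were fitted lower in 11 of 12, with a median of -0.11 and 0 called. The part of storage transcripts in the LEA values was not tested. RAB18 stood at 0.969 times mock, AT3G15670 at 0.950 times and M10 at 1.04 times, and EM6 averaged 5834 against 5823 FPKM. In each of these 4 the groups overlapped. The authors' deposited threshold list for mock against estradiol, 228 genes, held 0 members, and that for rgl2-13 against DOF6ioex, 248 genes, also held 0. Both lists are short beside the 22555 genes of the joined tables. A count of 0 among 49 members is thus not read as particular to the family.

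The second comparison set the libraries labelled rgl2-13 DOF6ioex against DOF6ioex, both in estradiol. The RGL2 transcript itself was called higher under the label (0.97 ± 0.14, adjusted p = 0.0184 in limma). Whether RGL2 function was lost was not tested, so differences are tied to the label and not to RGL2. No single member passed the adjusted test (limma, 0 of 40, beside 0.161% of all genes), but abundant members were nearly all fitted slightly lower under the rgl2-13 label. At an unadjusted p under 0.05, 14 members were lower, beside 2.63% of all genes, and 3 were higher, beside 12.6%. Of the 40 members, 31 were fitted lower, 77.5% beside 23.6% of all genes. In 17 members every library under the rgl2-13 label was below every DOF6ioex library, beside 4.96% of all genes, and in 3 every one was above, beside 15.8%. The members' median difference was -0.13, and that of all genes was 0.11. Relative to all genes the members thus stood at -0.23.

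**Figure D3:**
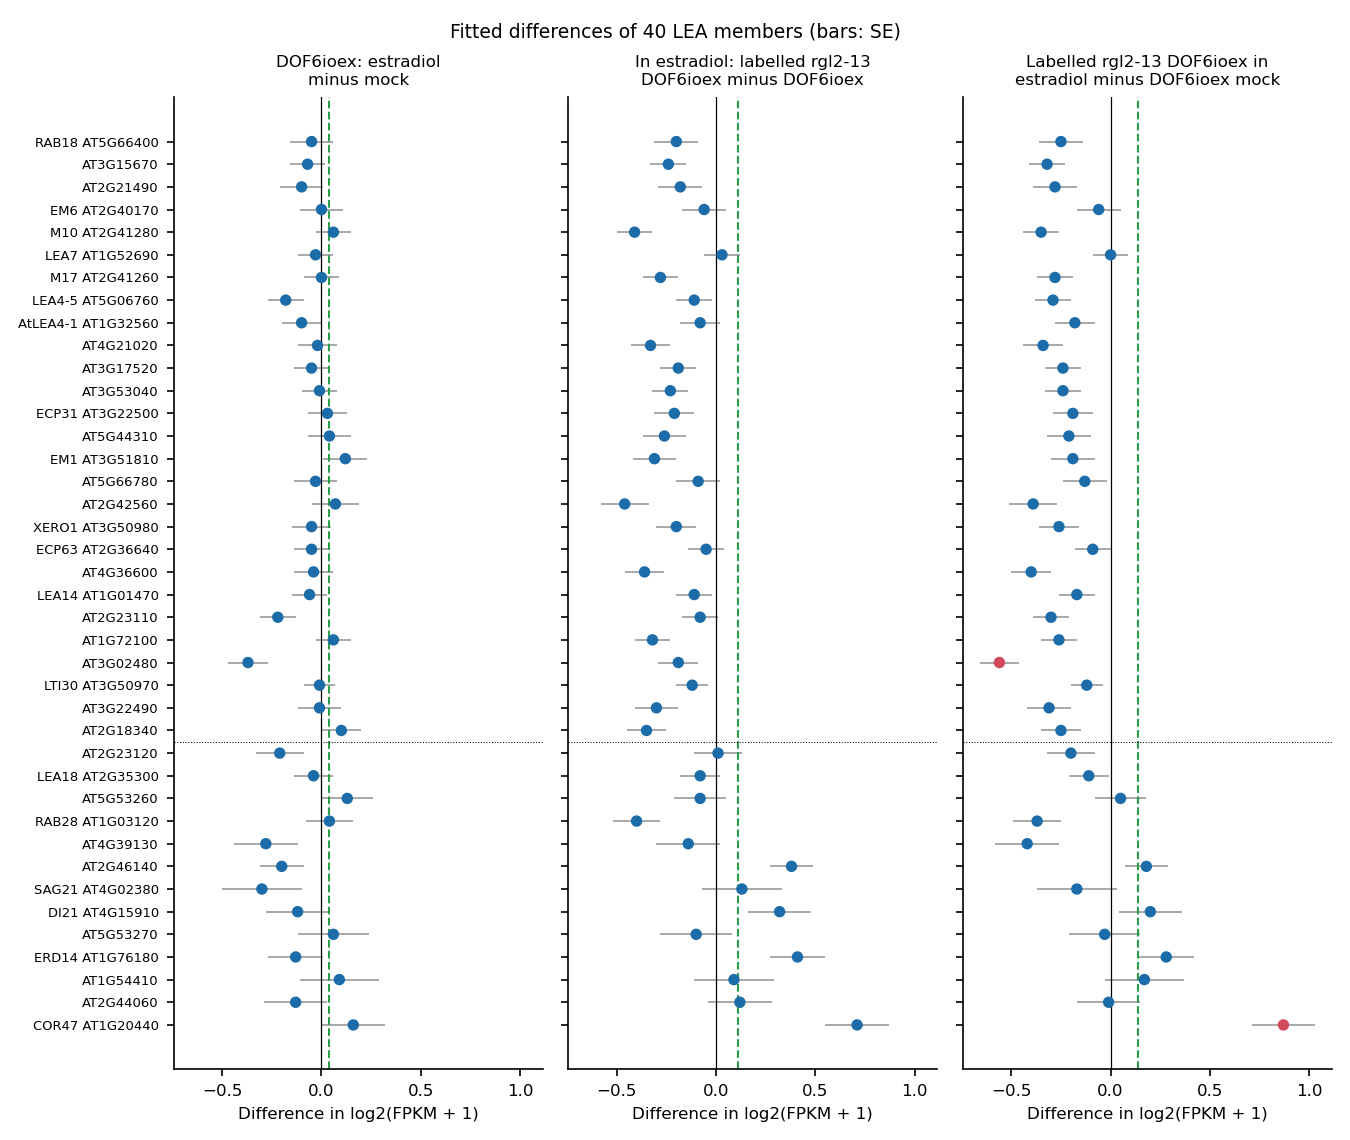
Fitted difference in log2(FPKM + 1) with its SE for the 40 tested members in the 3 comparisons, ordered by mean level, with the 27 members at 100 FPKM or more above the dotted line. The dashed line is the median of all 13679 tested genes, and red points, AT3G02480 and COR47 in the last panel, passed the adjusted test.

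The lower values lay among the abundant members. Of the 27 at 100 FPKM or more, 26 were fitted lower under the rgl2-13 label, with a median of -0.20, or -0.31 relative to all genes. LEA7 was fitted at 0.03, and with median-of-ratios scaling it was lower too, giving 27 of 27. Of the 643 other genes at 100 FPKM or more, 42.3% were fitted lower, with a median of 0.05; with median-of-ratios scaling 59.7% were, with a median of -0.06. Of these genes 19.3% did not overlap and were lower, and so were 16 of the 27 members. Of the 13 tested members below 100 FPKM, 5 were fitted lower and 8 higher, a balance that turned to 7 lower and 6 higher with median-of-ratios scaling. FPKM is a share of a fixed total, so a lower value is a lower share of the sequenced RNA. In whole seeds, fewer cells of a type and less RNA per cell cannot be told apart.

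M10 had the smallest p of the members in this comparison. It measured 3889, 4087 and 4038 FPKM in DOF6ioex in estradiol and 3184, 2764 and 3097 under the rgl2-13 label, and every library of the second group was below the first. The difference was -0.41 ± 0.09 with an adjusted p of 0.0989 in limma. Its neighbour M17 measured 3003, 3120 and 3113 FPKM against 2506, 2596 and 2484, also without overlap, a difference of -0.28 ± 0.09 with an adjusted p of 0.21. For M17 all 3 libraries under the label were close to each other, replicate 1 included. M10 was more spread under the label (SD 222) than in DOF6ioex in estradiol (SD 103), with replicate 2 the lowest and replicate 1 the highest.

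In LEA_4, 11 of 12 tested members were fitted lower under the rgl2-13 label, and 9 did not overlap and were lower. Of all genes, 23.6% were fitted lower and 4.96% did not overlap and were lower. For the 643 other genes at 100 FPKM or more these shares were 42.3% and 19.3%. Of the 12 storage and oil body markers, 12 were fitted lower and 8 did not overlap and were lower. AT2G42560 measured 1357, 1525 and 1327 FPKM in DOF6ioex in estradiol and 827, 1099 and 1160 under the label, with replicate 1 the lowest. Its difference was -0.46 ± 0.12, the lowest fitted value of any member here, with an adjusted p of 0.165. AT4G36600 measured 775, 895 and 828 FPKM against 592, 644 and 713, without overlap, and differed by -0.36 ± 0.10 with an adjusted p of 0.179. AT3G15670 measured 8135, 8775 and 8173 FPKM against 6503, 7061 and 7683, without overlap, and differed by -0.24 ± 0.09 with an adjusted p of 0.275. All 5 tested SMP members were fitted lower and 3 did not overlap, among them ECP31 at 0.865 times and AT3G22490 at 0.816 times DOF6ioex. In LEA_5, EM1 measured 1420, 1586 and 1475 FPKM in DOF6ioex in estradiol and 1069, 1394 and 1168 under the label. These did not overlap (-0.31 ± 0.11, adjusted p = 0.269 in limma), whereas EM6 did.

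The 3 members higher without overlap were of low level, and 2 of them are dehydrins. COR47 (AT1G20440, chromosome 1, 7084409 to 7086873, minus strand), a dehydrin known for its induction by cold, measured 1.42, 1.41 and 2.47 FPKM in DOF6ioex in estradiol and 3.84, 3.76 and 2.86 under the rgl2-13 label. The difference was 0.71 ± 0.16 with an adjusted p of 0.119 in limma. ERD14, a related acidic dehydrin named here after its values had been seen, measured 9.42, 10.4 and 11.9 FPKM against 17.2, 12.6 and 13.6. The difference was 0.41 ± 0.14 with an adjusted p of 0.252. AT2G46140, of the folded LEA_2 proteins, measured 34.1, 27.7 and 30.1 FPKM against 40.6, 40.8 and 38.2, a difference of 0.38 ± 0.11 with an adjusted p of 0.195. All 3 differences were above the median of all genes, 0.11.

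**Figure D4:**
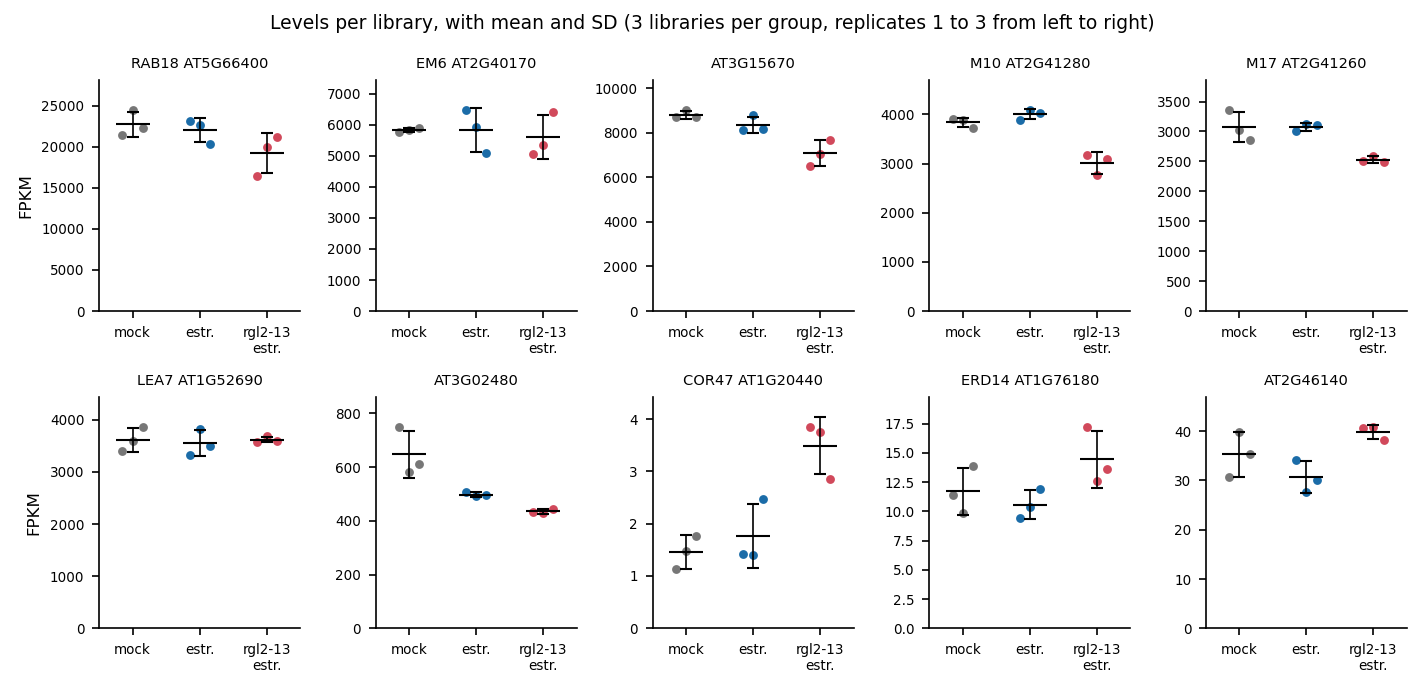
FPKM of 10 members in each library from an axis starting at 0, with the mean and SD of each group of 3; estr. stands for estradiol and rgl2-13 for the label. M10, M17 and AT3G15670 sit lower in all 3 libraries under the rgl2-13 label, LEA7 does not differ beyond its spread, and COR47, ERD14 and AT2G46140 sit higher than in DOF6ioex in estradiol.

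Replicate 1 under the rgl2-13 label held the lowest of the group's 3 values for 24 of the 40 tested members and for 18 of the 27 abundant ones. The same count was not made over all genes, so it is not read as particular to the members. Without replicate 1, 29 of 40 members were fitted lower, beside 37.5% of all genes, and 19 did not overlap and were lower, beside 8.75%. Of the 27 abundant members, 25 were then fitted lower, with a median of -0.17 where all genes had 0.04, and 18 did not overlap. Of the 643 other abundant genes, 53.7% were then fitted lower, with a median of -0.02, and 24.6% did not overlap and were lower. The 12 storage and oil body markers were fitted lower in 12 of 12, with a median of -0.25 in all libraries and -0.24 without replicate 1, and 0 were called in either fit. EPR1 was at 50203, 44219 and 37193 FPKM in DOF6ioex in estradiol and at 33815, 67414 and 56484 under the label, while ICE1 stayed between 24.6 and 27.7. The part of storage and endosperm transcripts in the LEA values was not tested.

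The third comparison set the estradiol libraries under the rgl2-13 label against mock DOF6ioex, so genotype label and treatment both differ. Here 2 of 40 members changed, beside 0.57% of all genes. AT3G02480 fell, as did 0.117% of all genes, and COR47 rose, as did 0.453%. AT3G02480 measured 748, 583 and 611 FPKM in mock and 433, 428 and 445 under the rgl2-13 label, 0.673 times the mock mean, without overlap in 3 against 3 libraries. The difference was -0.56 ± 0.10 with an adjusted p of 0.0283 in limma. COR47 measured 1.13, 1.48 and 1.77 FPKM in mock and 3.84, 3.76 and 2.86 under the label, 2.39 times the mock mean, without overlap. The difference was 0.87 ± 0.16 with an adjusted p of 0.0381, and at these low levels the log2(FPKM + 1) scale understates the ratio. Both calls were lost when any mock library, DOF6ioex estradiol replicate 2 or replicate 3 under the label was left out: the adjusted p for AT3G02480 was then 0.0583 to 0.0984 and for COR47 0.0581 to 0.174. Without DOF6ioex estradiol replicate 3 the adjusted p for AT3G02480 was 0.0522. Both calls were also lost with no filter on low values (adjusted p = 0.119 for AT3G02480 and 0.148 for COR47) and when the model held only the 6 libraries of this comparison (0.11 and 0.0504).

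The other members did not pass the test, and most were fitted lower. At an unadjusted p under 0.05, 19 members were lower, beside 2.43% of all genes, and 1 was higher, beside 22.8%. Of the 40 members, 33 were fitted lower under the rgl2-13 label than in mock, 82.5% beside 19.9% of all genes, with a median of -0.21 where all genes had 0.14. In 23 members every library was below every mock library, beside 3.49% of all genes, and in 1, COR47, every one was above, beside 27.3%. Among the 27 abundant members, 26 were fitted lower and 20 did not overlap, and of the 643 other abundant genes 39.8% were fitted lower, or 70.5% with median-of-ratios scaling, and 14.6% did not overlap and were lower. Without replicate 1 under the label, 31 of 40 members were fitted lower, beside 30.8% of all genes, with a median of -0.18 where all genes had 0.07, and 25 did not overlap and were lower, beside 7.55%. Of the 27 abundant members, 25 were then fitted lower and 22 did not overlap, beside 54.4% and 20.8% of the 643 other abundant genes. The count of called members was 2 without that library as well. RAB18 was at 0.845 times mock (-0.25 ± 0.11, adjusted p = 0.195 in limma), lower in all 3 libraries than in any mock library. AT3G15670 measured 8717, 9009 and 8680 FPKM in mock, against the 6503, 7061 and 7683 given above, and differed by -0.32 ± 0.09 with an adjusted p of 0.104. M10 measured 3899, 3894 and 3733 FPKM in mock and was at 0.785 times that level under the label, with an adjusted p of 0.0744. The dehydrin AT4G39130 was at 0.757 times mock (-0.42 ± 0.16, adjusted p = 0.151 in limma). The 12 storage and oil body markers were fitted lower in 12 of 12, with a median of -0.38 and 1 called; without replicate 1 under the label these were -0.36 and 0.

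The 3 comparisons share libraries, so their values are set side by side and not as independent evidence. AT3G02480 averaged 647 ± 88.1 FPKM (SD, n = 3) in mock, 498 ± 8.81 in DOF6ioex in estradiol and 435 ± 8.47 under the rgl2-13 label. M10 averaged 3842 ± 94.5, 4005 ± 103 and 3015 ± 222 FPKM, so that mock and DOF6ioex in estradiol overlapped and the third group lay below both. COR47 averaged 1.46 ± 0.32, 1.77 ± 0.609 and 3.49 ± 0.544 FPKM. Over the 27 abundant members, the lowest of the 9 libraries carried the rgl2-13 label for 25, and it was replicate 1 for 17. That count was not made over all genes, so it is not read as particular to the members.

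The promoters of the abundant members were rich in the ABRE core. Searched on both strands in the 250 bases before the gene start, ACGTG or its complement CACGT occurred in 24 of 27 promoters of members at 100 FPKM or more, 88.9%, and at least 2 matches in 77.8%. A single CACGTG counts as 2 matches here. It occurred in 12 of the 22 members below 100 FPKM, 54.5%, and in 22.9% of all 27443 protein-coding promoters. Among all 670 genes at 100 FPKM or more, which include the members, the share was 34.5%. The G-box CACGTG, which contains the ABRE core on both strands, occurred in 59.3% of the abundant members' promoters and 6.49% of all. The DRE core, CCGAC or GTCGG, occurred in 51.9% and 12.0%, and the RY core, CATGCA or TGCATG, which B3 factors such as ABI3 and FUS3 bind, in 18.5% and 8.43%. Among the 670 genes at 100 FPKM or more, the shares were 16.3% for the G-box, 17.6% for the DRE core and 14.0% for the RY core. For the RY core the members' 18.5%, 5 of 27 promoters, was thus near the share of abundant genes. The DOF core, AAAG or CTTT, occurred in 96.3% and 98.0%, so nearly every promoter of this length holds it. A match is a description of the letters and not of binding.

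**Figure D5:**
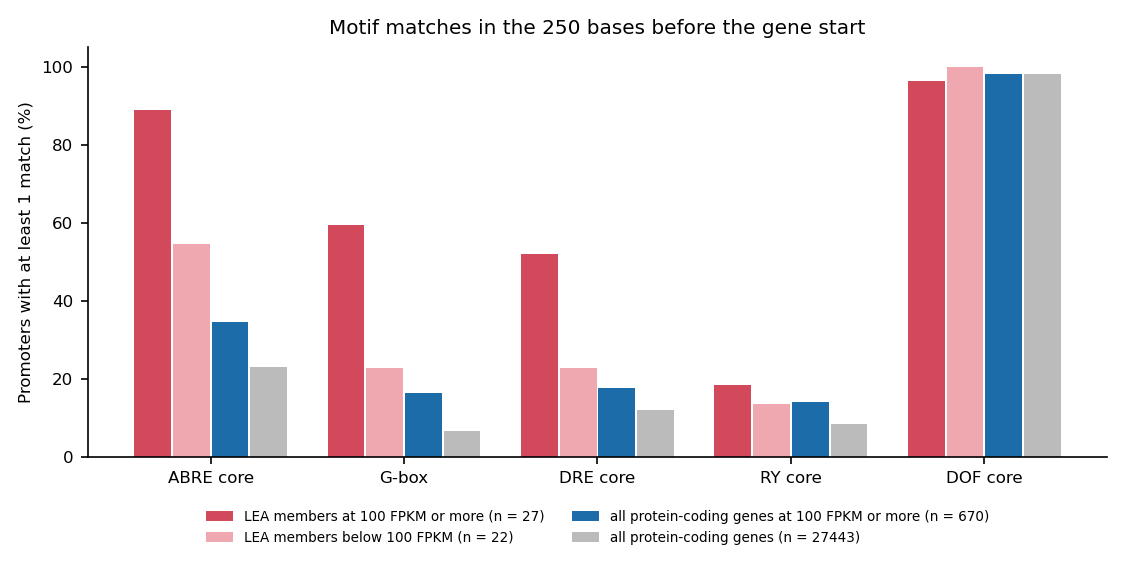
Percent of promoters with at least 1 match, on either strand of the 250 bases before the gene start, for 5 motifs in 4 sets of genes. The ABRE core is in 88.9% of the abundant members' promoters and in 22.9% of all protein-coding ones, while the DOF core is near its ceiling in every set.

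The members shown at the start illustrate the range. AT3G53040, at 1692 FPKM, holds 7 ABRE cores, as does AT4G36600, and LEA7 holds 5. The abundant members with no ABRE core in this window were M17, ECP31 and LTI30, and LTI30 holds 3 DRE cores. Among the members that passed the test, AT3G02480 holds 3 ABRE cores and COR47 holds 0. M10 holds 2 ABRE cores while M17, which lay lower under the rgl2-13 label with it, holds 0.

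Known regulators of LEA genes were largely present, and none passed the adjusted test. Of 22 listed, all 22 had a row and 15 were tested, and limma called 0 in each of the 3 comparisons. At an unadjusted p under 0.05 there were 0, 0 and 3, the last being ABF1, VAL2 and FUS3, all higher under the rgl2-13 label than in mock, where 22.8% of all genes were higher at that threshold. Of the 15 tested, 1 was higher without overlap in the first comparison, beside 10.6% of all genes. In the second 1 was lower, beside 4.96%, and in the third 2 were higher, beside 27.3%. The lower 1 was ABI5, with an adjusted p of 0.383 in limma. It measured 283, 283 and 286 FPKM in DOF6ioex in estradiol and 219, 265 and 271 under the rgl2-13 label. ABI5, the bZIP factor most closely tied to EM gene expression, averaged 273 ± 20.3 FPKM (SD, n = 3) in mock, 284 ± 1.29 in DOF6ioex in estradiol and 252 ± 28.4 under the rgl2-13 label. DREB2A, a drought-related activator of DRE genes, averaged 230 ± 33.8, 267 ± 16.2 and 265 ± 16.6 FPKM, and ABI3 averaged 77.5 ± 6.12, 68.1 ± 4.19 and 75.7 ± 11.5. The cold regulators CBF1, CBF2 and CBF3, and LEC1, LEC2, ABF3 and bZIP67, averaged under 1 FPKM.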

How the data were processed

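The submitters' processing notes name HISAT as a tool. Its version, the counting tool and the genome build were not given in the sources used here. In 6 pairwise tables the authors deposited FPKM per gene for 9 libraries, per the file headers, with a log2 ratio, a p-value and an FDR for each pair of libraries. In 2 tables the deposited FDR runs above 1 and was read as a score. These pairwise statistics were not used, nor were 4 value columns of the threshold lists that name no single library. The tables were joined, and a gene with no row in a library's table was set to 0.01. In the TAIR10.1 RefSeq annotation, 22230 of 22415 locus identifiers matched. The deposited gene length equalled the TAIR10.1 transcript length for 91.7% of 12359 single-transcript genes, so promoters, coordinates and overlaps are given in that build.

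The 13679 genes that reached 1 FPKM in 3 or more libraries were tested with limma 3.58.1 in R 4.3.3 with a mean-variance trend on log2(FPKM + 1), 1 mean per group and all 9 libraries in 1 model. Calls are Benjamini-Hochberg adjusted p under 0.05 over all tested genes. Each of the 40 tested members was at 1 FPKM or more in all 9 libraries. The fit was tested on simulated data. The depth estimate rests on low values near whole multiples of 1 fragment: 71.8% to 78.8% lay within 0.15 of a whole number, where chance gives 30%. With 50 bases taken off each length, 83.6% to 88.8% did, and the estimate was 29400000 to 31300000 fragments.

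The members, lists and tests were chosen with earlier results of these data known. The text names members called in any comparison, the 2 highest of each subgroup, the 6 with the smallest p per comparison and the 3 highest regulators, 25 members in all. Members outside that rule, such as ERD14, RAB28, XERO1, LTI30, AT3G53040, AT4G21020 and AT3G17520, and the regulators ABF1, VAL2 and FUS3, were named after their values were seen. Protein features had been planned but were not computed. Alternatives were another pseudocount, no filter, scaling by upper quartile or by median of ratios, a model of only the 6 libraries compared, a block for replicate number, and each library left out in turn.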

Additional observations from a re-analysis of the deposited data

How the results depend on the processing

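The count of called members stayed at 0 in the first 2 comparisons under every alternative run. For the rgl2-13 label in estradiol against mock it was 2, with 0 under no filter on low values, 0 in a fit on the 6 libraries compared, 0 with the replicate number as a block, and 0 to 2 with each library left out. It was 3 with median-of-ratios scaling, where M10 passed as well (-0.51, adjusted p = 0.0492 in limma). Over all alternatives the adjusted p ran from 0.018 to 0.119 for AT3G02480 and from 0.0279 to 0.174 for COR47; the block gave 0.0682 and 0.0925. Same-numbered libraries of the groups correlated at -0.412 to 0.253 over genes in their deviations from the group means, so the numbers were not taken to pair them. Of 18 results for single members, 252 alternative values kept direction and side of the threshold, 17 lost the threshold, 1 gained it and 0 reversed.

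The median log2 difference of the members kept its sign throughout. For estradiol against mock it was -0.08 with median-of-ratios and -0.08 with upper quartile scaling, and -0.07 to -0.01 with each library left out. For the rgl2-13 label against DOF6ioex in estradiol it was -0.23 and -0.24, and -0.19 to -0.10. For that label against mock it was -0.36 and -0.37, and -0.26 to -0.18. These scalings bring the median of all genes near 0, so by their construction they shift every gene.

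The summed FPKM of the members was 82319 ± 2225 in mock (SD, n = 3), 80011 ± 3482 in DOF6ioex in estradiol and 69996 ± 5629 under the rgl2-13 label. With median-of-ratios scaling it was 85994, 81052 and 66005, and with upper quartile scaling 86317, 81576 and 66074. Without M10, M17, EM1 and EM6 the sums were 68200, 65601 and 57627. With 1 library left out they ran from 81056 to 83154, from 78478 to 81904 and from 67304 to 72919.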
